A study of Mus musculus with 6 samples.

Results

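The genes described here are 35 genes of glycolysis and of the transcriptional response to low oxygen, measured in the stria vascularis of Errb mutant and wild-type mice. They were chosen by name: 18 code for glycolytic enzymes, with the lactate dehydrogenases and the regulatory enzyme Pfkfb3 among them, and 17 for other genes known to respond to hypoxia or to control that response. Each gene was read from 1 probe set, the one with the highest mean over the 6 arrays among those annotated with that gene symbol alone. By this rule 31 of the 35 were tested, 15 enzymes and 16 hypoxia response genes, out of 18193 genes on the array. Ero1l was matched through its current symbol, Ero1a. Gapdh had no single-symbol probe set besides the array's control probe sets, so it is described from those and was not in the test. Gpi1, Eno1 and Bnip3l had no single-symbol probe set and are not analysed here.

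The Errb mutants came from a conditional knock-out of Errb (Esrrb, also Nr3b2), the gene of estrogen-related receptor beta, a nuclear receptor, and 3 mutant pools were compared with 3 wild-type pools. Each pool held tissue from 10 mice and was hybridised to 1 Affymetrix array. The sample labels name stria vascularis and the design text names inner ears. The age, postnatal day 3 to 5, is stated for wild-type replicate 1 alone, and for the Cre driver, strain and sex the sources used here give nothing.

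Glycolysis breaks glucose down to pyruvate in the cytosol, and lactate dehydrogenase interconverts pyruvate and lactate. When oxygen is low, the prolyl hydroxylases of the Egln family no longer mark the alpha subunits of hypoxia-inducible factor for destruction, and the factor raises many glycolytic genes together with genes for glucose uptake, vessel growth and mitochondrial turnover. The stria vascularis is a highly vascular epithelium of the cochlear lateral wall that pumps potassium into endolymph at a high metabolic cost, and its capillaries and basal cells carry the glucose transporter Slc2a1.

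Same-numbered arrays were compared as pairs, and all values are log2 levels as deposited. A difference is mutant minus wild type, given as mean ± SD over the 3 pairs (n = 3), and adjusted p-values come from limma with the replicate number as a block, corrected over 45037 probe sets. Array medians were 6.08, 6.94 and 6.38 in mutant replicates 1 to 3, against 6.07, 6.95 and 6.42 in wild-type replicates 1 to 3. The scale of the deposited values thus differs more between pairs than between genotypes, and whether the pairs were processed together is not stated. For a gene that shifts with its array median, a step smaller than that shift leaves the genotypes overlapping. Precision is limited by the 3 arrays of each genotype. Nothing in the labels says more than that the pools are separate samples, so p-values measure only the spread between these samples. Pair 1 stood apart in RNA quality. The labels were checked on the marginal cell gene Kcne1, which fell to 5.51, 5.95 and 4.70 in the mutant, against 10.03, 9.92 and 9.16 in wild type (limma, adjusted p = 0.00373). The mutant values lie below their array medians, and whether they lie above background was not tested. The probe set of Esrrb differed by -0.07 ± 0.21, and since its place relative to the deleted part is unknown here, it checks nothing. Marginal cell markers were lower on average in 7 of 7 genes (median -1.40, 4 called), with mean levels of 7.60 to 8.56 on mutant arrays and 9.27 to 10.29 on wild-type arrays. These 7 include Kcne1, already used for the label check, and Esrrb, whose probe set checks nothing. Intermediate cell markers were lower in all pairs in 6 of 7 genes (median -0.73, none called), with mean levels of 7.85 to 8.77 on mutant arrays and 8.37 to 9.59 on wild-type arrays. The part of these strial cell types in the differences of the genes below was not tested. Basal cell markers, with Slc2a1 of the 31 genes among them, were lower in all pairs in 4 of 4 genes (median -0.55, 1 called). They averaged 10.4 to 11.7 on mutant arrays and 11.2 to 12.3 on wild-type arrays. Skeletal muscle markers, a tissue rich in glycolytic enzymes, averaged 5.04 to 5.78 on mutant arrays and 5.09 to 5.86 on wild-type arrays.

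None of the 31 genes passed the test at an adjusted p under 0.05, against 27 of 18193 genes (0.148%) and 42 of 45037 probe sets (0.0933%) on the array. Without the pairing none passed either, against 0.0055% of all genes. Of the 31, 1 gene, Pfkfb3, had an adjusted p under 0.1, as did 0.324% of all genes. Pfkfb3, which makes the allosteric activator of phosphofructokinase, was 1.92-fold lower in the mutant, where its values lie below their array medians. With no correction, 8 of the 31 had p under 0.05, where 7.35% of all genes did. These were Hk2, Aldoc, Eno2 and Ndrg1, higher in the mutant (4.04% of all genes), and Pfkfb3, Pfkp, Pgam1 and Slc2a1, lower in the mutant (3.31%). In all 3 pairs 6 genes were higher and 8 lower, against 12.9% and 9.03% of all genes. A gene exactly equal in pair 1 cannot count here, and 32.1% of all genes were, beside 5 of the 31. The 31 genes also had a higher median level, 9.55 against 7.29 over all genes. In these bulk samples fewer cells of a type and less RNA per cell cannot be told apart. The test's 95% interval lay within -0.5 to 0.5 for 23 of the 31 genes, 9 enzymes and 14 hypoxia response genes.

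**Figure D1:**
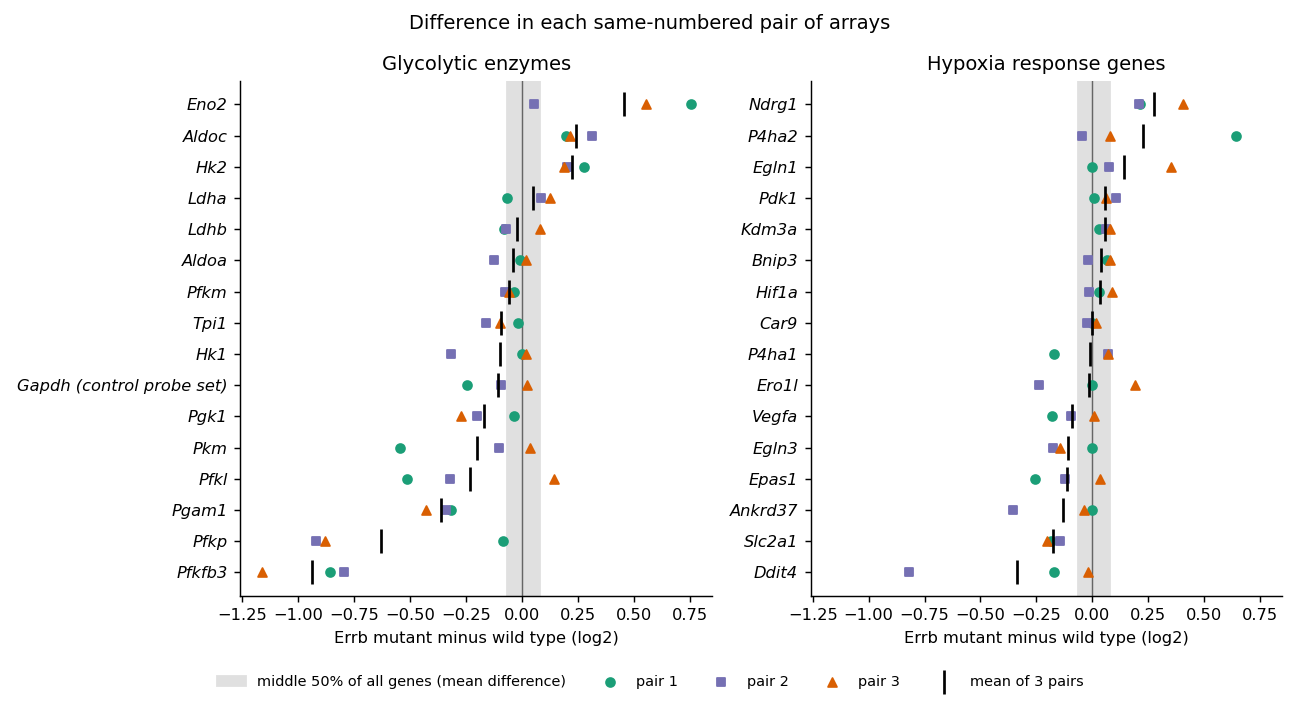
Difference between Errb mutant and wild type (log2, horizontal axis) in each of the 3 same-numbered pairs of arrays (green circle pair 1, purple square pair 2, orange triangle pair 3) with their mean (black bar), for glycolytic enzymes on the left and hypoxia response genes on the right. The grey band holds the middle 50% of the mean differences of all genes. Pfkfb3 lies at -0.86, -0.80 and -1.16 in pairs 1 to 3, and most means of hypoxia response genes lie within 0.25 of 0.

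The promoters of Pfkfb3, Pgam1 and Slc2a1, lower in the mutant in every pair, and of Hk2, higher in every pair, are shown so that the letters hypoxia-inducible factor recognises can be seen on both sides of 0. Each window runs from 250 bases before to 50 after a transcription start, 5′ to 3′ on the gene's strand, from RefSeq on build GRCm38.p6. Capitals mark ACGTG or GCGTG, the core letters of a hypoxia response element, on either strand (CACGT and CACGC are their reverse complements). Pfkfb3 has 2 starts in the table, at chr2:11553880-11554179 and chr2:11502041-11502340 (minus strand). Pgam1 is at chr19:41911621-41911920 (plus strand), Slc2a1 at chr4:119108495-119108794 (plus strand) and Hk2 at chr6:82774405-82774704 (minus strand).
Pfkfb3, first start: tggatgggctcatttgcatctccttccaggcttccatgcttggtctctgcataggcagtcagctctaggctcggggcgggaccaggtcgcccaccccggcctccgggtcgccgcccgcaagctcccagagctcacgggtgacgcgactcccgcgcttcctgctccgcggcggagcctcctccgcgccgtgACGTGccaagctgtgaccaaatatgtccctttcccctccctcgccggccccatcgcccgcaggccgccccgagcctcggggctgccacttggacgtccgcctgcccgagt
Pfkfb3, second start: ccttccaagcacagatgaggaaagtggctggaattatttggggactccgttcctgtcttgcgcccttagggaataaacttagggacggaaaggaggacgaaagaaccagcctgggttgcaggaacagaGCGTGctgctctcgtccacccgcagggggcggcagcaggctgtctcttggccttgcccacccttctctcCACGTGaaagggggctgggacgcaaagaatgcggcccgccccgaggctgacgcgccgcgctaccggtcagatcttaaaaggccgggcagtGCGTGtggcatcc
Pgam1: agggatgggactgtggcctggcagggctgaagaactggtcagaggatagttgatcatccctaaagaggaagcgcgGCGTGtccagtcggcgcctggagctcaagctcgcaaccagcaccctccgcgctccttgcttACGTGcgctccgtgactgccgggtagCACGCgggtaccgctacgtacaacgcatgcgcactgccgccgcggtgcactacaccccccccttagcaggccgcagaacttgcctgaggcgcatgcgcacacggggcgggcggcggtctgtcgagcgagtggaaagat
Slc2a1: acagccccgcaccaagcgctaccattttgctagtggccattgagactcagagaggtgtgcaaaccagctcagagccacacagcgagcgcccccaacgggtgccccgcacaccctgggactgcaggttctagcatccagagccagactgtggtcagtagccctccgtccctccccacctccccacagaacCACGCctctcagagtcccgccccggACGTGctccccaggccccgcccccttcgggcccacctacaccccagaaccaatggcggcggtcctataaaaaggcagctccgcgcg
Hk2: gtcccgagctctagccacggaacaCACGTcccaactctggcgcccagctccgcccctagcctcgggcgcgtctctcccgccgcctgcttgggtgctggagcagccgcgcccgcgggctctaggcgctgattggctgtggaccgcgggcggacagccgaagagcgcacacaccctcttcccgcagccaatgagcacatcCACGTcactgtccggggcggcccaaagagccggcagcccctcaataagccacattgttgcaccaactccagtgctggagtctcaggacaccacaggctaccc

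The core letters were common in these windows. Of the 31 genes, 29 had a window in the table, and 33 of their 43 windows (76.7%) held ACGTG or GCGTG on either strand, against 43.8% of all 32851 windows of the same length. Counted by motif, ACGTG was in 58.1% of the windows of these genes and 19.6% of all windows, and GCGTG in 53.5% and 32.4%. CACGTG, an E-box that contains ACGTG, was in 11.6% and 7.15%. AAGGTCA, the core letters that estrogen-related receptors recognise, was in 1 of the 43 windows (2.33%), that of Tpi1, and in 4.72% of all windows. The windows also differed in base composition, with a median GC content of 62.3% in these genes and 52.7% in all windows, and its part in the shares was not tested. A match is a description of letters and not of binding. By gene, 27 of the 29 hold ACGTG or GCGTG (93.1%, against 46.7% of all genes with a window). Finding the core letters on both sides of 0 therefore says little: Hk2 and Aldoc have them, as do Pfkfb3 and Pgam1. Eno2 and Tpi1 have neither.

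Entry into glycolysis was read from the hexokinases, which trap glucose in the cell. Hk2, the inducible form, had levels of 7.42, 8.07 and 7.63 in the mutant, against 7.14, 7.87 and 7.44 in wild type. It was higher in the mutant of every pair by a similar step (0.22 ± 0.05, adjusted p = 0.555), though the genotypes overlap. Hk1, the constitutive form, differed by -0.10 ± 0.19 by its best expressed probe set, with exactly equal values in pair 1. Its other probe set differed by -0.43 ± 0.26, with -0.73 in pair 1. The mean of both was -0.26.

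Phosphofructokinase commits fructose 6-phosphate to glycolysis and is built from muscle (Pfkm), liver (Pfkl) and platelet (Pfkp) type subunits. Pfkp had levels of 6.86, 6.73 and 6.41 in the mutant, against 6.94, 7.64 and 7.29 in wild type. Among the best expressed probe sets of the 31 genes it was the only one whose genotypes did not overlap, where 1.07% of all genes did not. Its difference of -0.63 ± 0.47 (adjusted p = 0.539) came from pairs 2 and 3, since pair 1 differed by -0.08. Its other probe sets differed by -0.11 and -0.44, and the mean of all 3 was -0.39. The better expressed Pfkm differed by -0.06 ± 0.02 and Pfkl by -0.23 ± 0.34, with Pfkl at -0.51, -0.32 and 0.14 in pairs 1 to 3. Without pair 1 the Pfkl difference was -0.09. The second Pfkl probe set differed by -0.32 ± 0.21, lower in every pair, and the third by -0.0037 ± 0.03.

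Pfkfb3 codes for the bifunctional enzyme that raises fructose 2,6-bisphosphate and so activates phosphofructokinase. Its levels were 5.49, 6.93 and 6.30 in the mutant, against 6.35, 7.73 and 7.47 in wild type. On each mutant array this is below the array median, and whether it is above background was not tested. The mutant was lower in each pair, by a mean of -0.94 ± 0.20 (95% interval -1.18 to -0.70, adjusted p = 0.0857), while the genotypes overlap because pair 1 is low in both. Quantile normalization of all 6 arrays moved the adjusted p to 0.0430, within 0.0430 to 1 over its 9 alternatives. The second Pfkfb3 probe set differed by less, -0.20 ± 0.32, with exactly equal values in pair 1 and -0.57 in pair 3. The mean of both probe sets was -0.57.

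**Figure D2:**
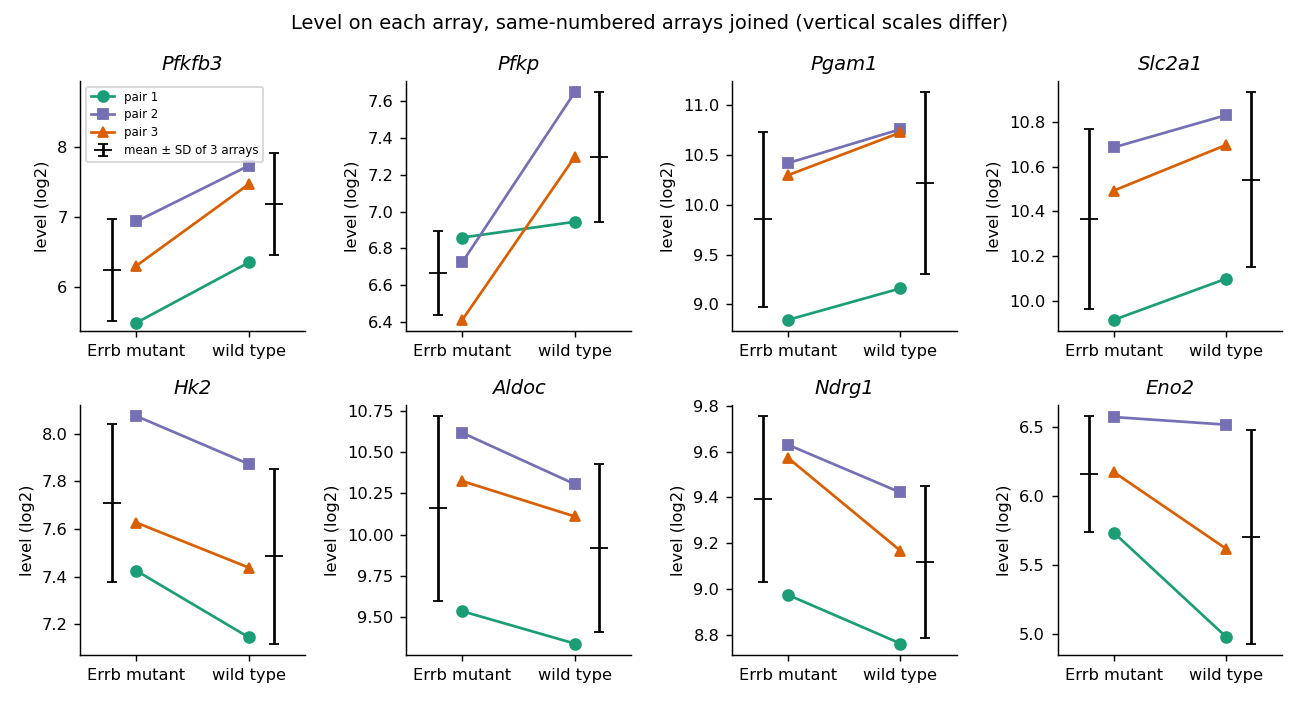
Log2 level on each array (vertical axis, scales differ between panels) for 8 genes with an unadjusted p under 0.05, Errb mutant on the left and wild type on the right, with same-numbered arrays joined and black bars for mean ± SD of 3 arrays. The lines of Pfkfb3, Pfkp, Pgam1 and Slc2a1 run up to wild type in every pair and those of Hk2, Aldoc, Ndrg1 and Eno2 run down, while the arrays of 1 genotype are spread over a wider range than most of the steps.

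Aldolase and triose phosphate isomerase make the 3-carbon sugars. Aldoc, the brain-type aldolase, had levels of 9.53, 10.62 and 10.33 in the mutant, against 9.34, 10.31 and 10.11 in wild type. It was higher in each pair (0.24 ± 0.06, adjusted p = 0.530), with overlapping genotypes. Aldoa, the widespread form, differed by -0.04 ± 0.07, and all 5 of its probe sets lay between -0.22 and -0.04, with a mean of -0.10. Tpi1 differed by -0.09 ± 0.07.

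Of the later steps, Pgk1 and Pkm catalyse those that yield ATP and Pgam1 one between them, and all 3 were lower on average. Pgk1, phosphoglycerate kinase and the best expressed enzyme tested, had levels of 11.89, 12.09 and 11.90 in the mutant, against 11.93, 12.29 and 12.17 in wild type. It differed by -0.17 ± 0.12 (adjusted p = 0.730), and its second probe set by -0.29 ± 0.08. Pgam1, phosphoglycerate mutase, had 8.84, 10.42 and 10.30 in the mutant, against 9.16, 10.76 and 10.73 in wild type. Its difference of -0.36 ± 0.06 was near equal in the 3 pairs (95% interval -0.53 to -0.19, adjusted p = 0.310), and the genotypes overlap. Pkm, pyruvate kinase, differed by -0.20 ± 0.30, with -0.54 in pair 1, and without that pair by -0.03.

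Eno2, the neuronal enolase, was the enzyme furthest on the higher side. Its levels were 5.73, 6.57 and 6.17 in the mutant, against 4.98, 6.51 and 5.62 in wild type. On every array this is below the array median, and whether it is above background was not tested. The difference of 0.46 ± 0.36 (adjusted p = 0.588) was 0.75, 0.06 and 0.56 in pairs 1 to 3. Neuron markers were higher too: 6 of 7 were higher in all 3 pairs, with list medians of 2.65, 0.34 and 0.24 in pairs 1 to 3. The mean level of the 7 ran from 5.74 to 7.86 on mutant arrays and from 5.45 to 5.99 on wild-type arrays. Their part in the Eno2 difference was not tested.

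The last step, between pyruvate and lactate, differed little by the best expressed probe sets. Ldha, the subunit favoured in glycolytic tissue, had levels of 9.69, 11.39 and 11.14 in the mutant, against 9.76, 11.30 and 11.01 in wild type, a difference of 0.05 ± 0.10 (95% interval -0.14 to 0.24). Ldhb, the heart-type subunit, had 11.22, 11.75 and 11.25 in the mutant, against 11.30, 11.82 and 11.17 in wild type, a difference of -0.02 ± 0.09 (-0.21 to 0.16). Both sit high on the array, above 96.0% and 98.2% of genes by level, and their genotypes overlap. The other Ldhb probe sets differed by -0.05, -0.15 and -0.12.

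Gapdh, glyceraldehyde 3-phosphate dehydrogenase, is both a glycolytic enzyme and the array's control for RNA integrity. Its 3′ control probe set had levels of 11.26, 13.26 and 13.02 in the mutant, against 11.51, 13.35 and 12.99 in wild type (-0.10 ± 0.13). The 5′ control probe set of the same transcript differed more, by -0.37 ± 0.28. The gap between them, which widens as RNA degrades, was 2.57, 0.16 and 0.51 in mutant replicates 1 to 3, against 2.28, 0.21 and -0.04 in wild-type replicates 1 to 3. Pairs 1 and 3 had the wider gap in the mutant and pair 2 did not, and for Actb the gap was wider in the mutant by 0.34 in pair 1 and 0.31 in pair 3.

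Over the 15 enzymes tested the median difference was -0.09 (-0.14 without the _x_at and _s_at probe sets, classes that can match several transcripts, and -0.05 without pair 2), with quartiles of -0.22 and 0.01, beside 0.0036, -0.07 and 0.08 over all genes. Of the 15, 11 were lower on average, and 48.6% of all genes were. The enzyme median was -0.03, -0.12 and 0.02 in pairs 1 to 3, so pair 3 did not share the sign. In all pairs 6 of the 15 were lower (Pfkp, Pfkm, Pfkfb3, Tpi1, Pgk1 and Pgam1) and 3 higher (Hk2, Aldoc and Eno2).

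The 2 alpha subunits of hypoxia-inducible factor were both among the best expressed genes. Hif1a had levels of 11.60, 12.45 and 12.14 in the mutant, against 11.57, 12.47 and 12.05 in wild type, a difference of 0.03 ± 0.05 (95% interval -0.14 to 0.20), which became -0.16 with the mean of its 4 probe sets. Epas1, the form prominent in endothelium, had 10.39, 11.22 and 10.91 in the mutant, against 10.64, 11.34 and 10.88 in wild type, a difference of -0.11 ± 0.14 (-0.32 to 0.09). In pair 1 Epas1 differed by -0.26, and without that pair by -0.04, while the mean of its 2 probe sets was -0.18. The genotypes overlap for both. These subunits are controlled mainly through protein stability, which the arrays do not measure.

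Of the prolyl hydroxylases that sense oxygen, Egln1 had levels of 9.33, 10.02 and 9.52 in the mutant, against 9.33, 9.95 and 9.17 in wild type. The pair 1 values were exactly equal and pair 3 gave most of the difference of 0.14 ± 0.18, while its second probe set differed by -0.19 ± 0.58 and the mean of both by -0.03. Egln3, which is itself strongly induced by the factor, differed by -0.11 ± 0.09, and by -0.06 with the mean of its 2 probe sets. Neither was far from 0 for its spread, but Egln3 too was exactly equal in pair 1, and both spreads take in that tie. Without pair 1 Egln1 differed by 0.21 and Egln3 by -0.16.

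Among the targets that change metabolism, Slc2a1, the glucose transporter GLUT1, had levels of 9.91, 10.69 and 10.49 in the mutant, against 10.10, 10.83 and 10.70 in wild type. The step was small and near equal in each pair (-0.18 ± 0.03, 1.13-fold, 95% interval -0.34 to -0.01, adjusted p = 0.671), and its other 2 probe sets gave -0.24 ± 0.06 and -0.25 ± 0.08. The other 3 basal cell markers used here were also lower in all pairs, and Gjb6, a connexin gene, passed the test in the paired fit. Endothelial markers had a median of -0.20, with 3 of 8 lower in all pairs and mean levels of 7.24 to 8.77 on mutant arrays and 7.65 to 8.92 on wild-type arrays. The part of these cell types in the Slc2a1 difference was not tested. Pdk1, the kinase that shuts pyruvate dehydrogenase, had 9.53, 10.41 and 9.55 in the mutant, against 9.53, 10.31 and 9.49 in wild type (0.06 ± 0.05).

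Vegfa, the main vessel growth factor, had levels of 8.31, 9.27 and 8.63 in the mutant, against 8.49, 9.37 and 8.62 in wild type. This is a difference of -0.09 ± 0.09 with overlapping genotypes. Its second probe set differed by -1.02 ± 0.92, from -2.02 in pair 1, -0.23 in pair 2 and -0.81 in pair 3, and the mean of both probe sets was -0.55. Pairs 1 and 3 are also those with the wider RNA integrity gap in the mutant, whose part in it was not tested. Car9, a carbonic anhydrase used as a hypoxia marker, differed by -0.0023 ± 0.02, with levels between 6.34 and 7.09 on all arrays. Its sign turned with quantile normalization or median centring.

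Ndrg1, a hypoxia and stress responsive gene, was the hypoxia response gene furthest on the higher side. It had levels of 8.97, 9.63 and 9.57 in the mutant, against 8.76, 9.42 and 9.17 in wild type (0.27 ± 0.11, 1.21-fold, adjusted p = 0.516). All 5 of its probe sets had positive mean differences, from 0.04 to 0.43, though in pair 3 the least expressed gave -0.42 and -0.24. The second best expressed was at 0.43 ± 0.07, with 9.48, 9.42 and 9.44 in the mutant, against 8.98, 8.98 and 9.08 in wild type, without overlap. It is of the _x_at class and the best expressed of the _s_at class, which can match several transcripts. The next by level gave 0.15 ± 0.10. Ddit4, an inhibitor of mTOR signalling induced by stress, had 8.67, 9.10 and 8.34 in the mutant, against 8.84, 9.92 and 8.36 in wild type. Its difference of -0.34 ± 0.43 rested on pair 2, and without that pair it was -0.09.

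P4ha1 and P4ha2 code for the catalytic subunits of collagen prolyl hydroxylase. P4ha2 had levels of 5.69, 5.98 and 5.38 in the mutant, against 5.04, 6.03 and 5.31 in wild type. Pair 1 alone gave most of its 0.23 ± 0.37, and without that pair it was 0.02. P4ha1 differed by -0.01 ± 0.14, by 0.0017 when each array was centred on its median and by -0.25 with the mean of its 2 probe sets. The oxidoreductase gene Ero1l differed by -0.02 ± 0.21, its other probe sets by -0.25 and -0.28, and the mean of all 3 by -0.18. The mitophagy gene Bnip3 differed by 0.04 ± 0.05, the histone demethylase gene Kdm3a by 0.06 ± 0.02, and Ankrd37 by -0.13 ± 0.19, which was -0.02 without pair 2.

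Over the 16 hypoxia response genes the median difference was -0.0069, which became 0.0063 with median centring and -0.10 with the mean of each gene's probe sets, and the pair medians were 0, -0.03 and 0.06. In all 3 pairs 3 were higher (Pdk1, Ndrg1 and Kdm3a) and 2 lower (Slc2a1 and Ddit4). No hypoxia response gene differed by 0.5 or more on average and 2 enzymes did, Pfkp and Pfkfb3, where 1.61% of all genes did. Exactly equal values in pair 1 occurred in 1 enzyme (Hk1) and 4 hypoxia response genes (Car9, Egln1, Egln3 and Ankrd37), and in 32.1% of all genes.

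Enzyme levels also differed between pairs. With each array set relative to its median, 10 of the 15 enzymes were lower in replicate 1 than in the mean of replicates 2 and 3, in each genotype, where 48.7% of all genes in the mutant and 45.0% in wild type were. Pkm was -2.22 from the other replicates in the mutant and -1.67 in wild type, Aldoa -1.44 and -1.45, Pfkm -1.32 and -1.32, and Tpi1 -1.05 and -1.12. A drop of 1 or more occurred in 4 of 15 enzymes in each genotype, against 4.31% of all genes in the mutant and 2.26% in wild type. The enzyme median was -0.55 in the mutant and -0.47 in wild type, that of the hypoxia response genes 0.18 in the mutant and 0.26 in wild type, and that of all genes 0.01 in the mutant and 0.06 in wild type. Replicate 1 is also where the Gapdh integrity gap exceeded 2 in both genotypes, and its part in these levels was not tested.

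**Figure D3:**
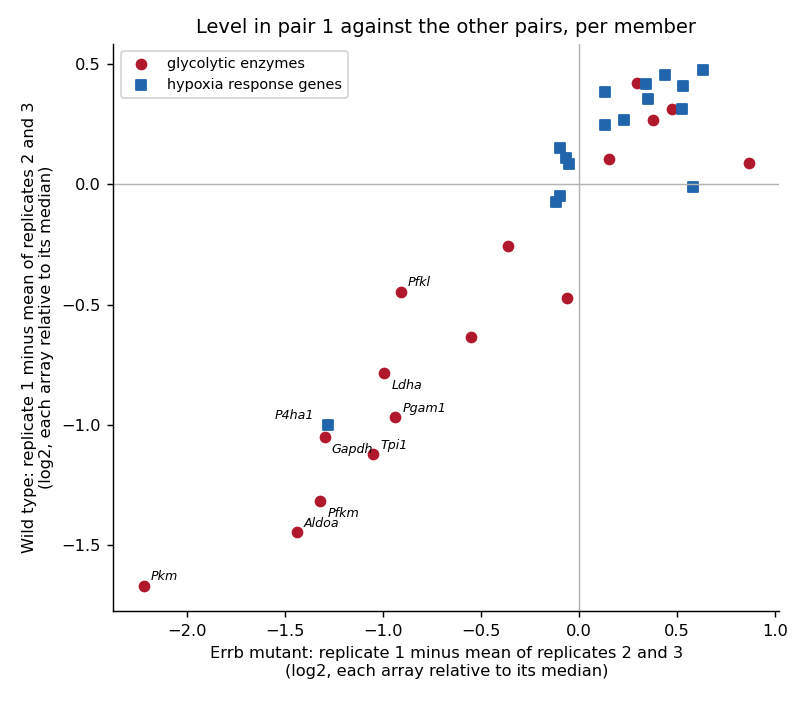
Level in replicate 1 minus the mean of replicates 2 and 3 (log2, each array relative to its median) in the Errb mutant (horizontal axis) and in wild type (vertical axis), 1 point per gene, red circles for glycolytic enzymes with Gapdh by its control probe set and blue squares for hypoxia response genes. Pkm, Aldoa, Pfkm, Tpi1 and Gapdh lie below -1 in both genotypes, as does P4ha1 among the hypoxia response genes.

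Several probe sets were available for 19 of the genes, and in 16 of these all mean differences had 1 sign. The exceptions were Egln1, Pdk1 and Hif1a. Among the 37 probe sets that were not a gene's best expressed, 30 had a negative mean difference, where 54.2% of such probe sets on the array did. Differences of -0.5 or below occurred in 4 of the 37 in pair 1, 0 in pair 2 and 7 in pair 3. Over all probe sets tested the shares were 2.38%, 0.777% and 4.40%. Differences of 0.5 or above occurred in none of the 37, beside 1.43%, 0.691% and 3.28% of all probe sets tested. Of the 37, those furthest from 0 in pair 3 were -1.61 for a Hif1a probe set, -1.37 for P4ha1 and -1.15 for Pfkp. The best expressed probe sets of these genes gave 0.09, 0.07 and -0.88 there. Pairs 1 and 3 are those in which the RNA integrity gap was wider in the mutant. Its part in the differences of these probe sets was not tested.

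**Figure D4:**
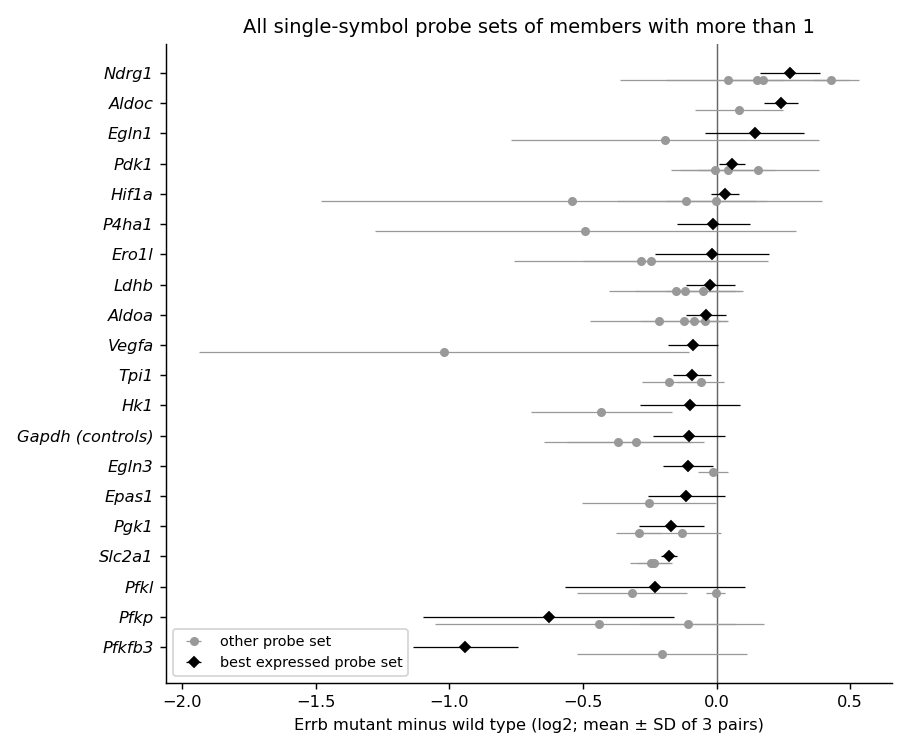
Mean difference between Errb mutant and wild type (log2, horizontal axis) with the SD over 3 pairs as bars, for every single-symbol probe set of the 19 genes with more than 1 and for the Gapdh controls; black diamonds are the best expressed probe sets and grey circles the others. Grey circles of Vegfa, Hif1a and P4ha1 lie at -1.02, -0.54 and -0.49 with wide bars, to the left of their black diamonds, while the probe sets of Slc2a1 lie close together.

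Other genes of these pathways were read from 8 lists with 120 symbols, of which 107 genes were measured. The test called 1 of them, Adm, where 0.148% of all genes were called. By unadjusted p (under 0.05) 2 were higher in the mutant with 11 lower, beside 4.04% and 3.31% of all genes. Their median difference was -0.04. Adm, which codes for the vasodilator peptide adrenomedullin and is induced by hypoxia, fell in the mutant. Its levels were 6.65, 7.22 and 6.58 in the mutant, against 7.45, 8.13 and 7.56 in wild type, without overlap (-0.89 ± 0.09, limma, adjusted p = 0.0466), and without the pairing its adjusted p was 1.

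The rest of that list did not pass. Those next to Adm by size, picked after their values were seen, were the phosphatase gene Dusp1 (-0.64 ± 0.20), Selenbp1 (-0.54 ± 0.22) and Bhlhe40, a clock and hypoxia repressor (-0.37 ± 0.08). The oxygen sensing machinery had a median of 0.08 over 10 genes, with Arnt2, a partner subunit of the factor, at 0.19 ± 0.27 and Hif3a at -0.14 ± 0.14.

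Of 14 further glycolysis isozymes and regulators none passed. Pgam2, the muscle-type phosphoglycerate mutase, was furthest from 0, with 4.98, 6.68 and 5.90 in the mutant, against 5.93, 7.16 and 6.61 in wild type (-0.71 ± 0.23, adjusted p = 0.212). Like Pgam1 it was lower in every pair, and its genotypes overlap. Gapdhs, the sperm-type dehydrogenase, differed by -0.21 ± 0.15.

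Transport of glucose and lactate gave a mixed picture over 13 genes (median -0.08). Slc2a3, the neuronal glucose transporter GLUT3, had 8.24, 8.06 and 7.58 in the mutant, against 7.45, 7.87 and 7.21 in wild type (0.45 ± 0.31, adjusted p = 0.536). It was furthest up in pair 1, as the neuron markers were, and their part in it was not tested. Bsg, the chaperone of the lactate transporters, differed by -0.28 ± 0.25.

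Around pyruvate dehydrogenase, which feeds pyruvate to the mitochondria, the median over 12 genes was -0.13, and 5 of 12 were lower in all pairs. Dlat, its acetyltransferase subunit, differed by -0.31 ± 0.12 and Mpc1, a mitochondrial pyruvate carrier, by -0.31 ± 0.31, neither passing. In gluconeogenesis Fbp1 differed by -0.39 ± 0.26 and Pcx by 0.07 ± 0.16. The pentose phosphate list had a median of -0.04, with H6pd at 0.07 ± 0.16 and Pgls at -0.07 ± 0.23. Glycogen genes also had a median of -0.04, with Gbe1 at -0.18 ± 0.14 and Pygb at 0.15 ± 0.28.

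**Figure D5:**
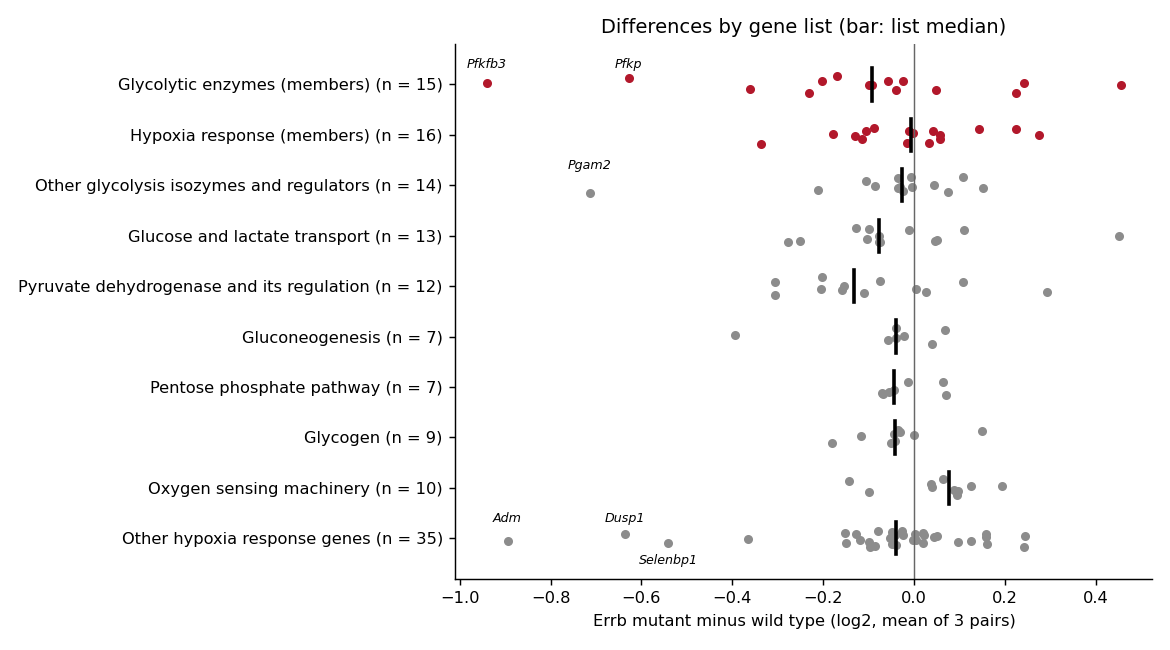
Mean difference between Errb mutant and wild type over 3 pairs (log2, horizontal axis), 1 point per gene, for the 2 groups of genes described here (red) and 8 lists of other pathway genes (grey), with a bar at each list's median and labels on genes at 0.5 or more from 0. All labelled genes lie on the negative side, from Adm and Pfkfb3 to Selenbp1, and the bars lie between -0.13 and 0.08.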

How the data were processed

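Gene expression was measured on 6 Affymetrix arrays, 3 of Errb mutant and 3 of wild-type stria vascularis. The deposited log2 values, 1 per probe set and array, were made by the authors with RMA, per the submitters' processing notes, with no version or settings given; their range fits that scale, and they were used as deposited. The 64 control probe sets were left out and 45037 probe sets tested.

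The test was limma 3.58.1 in R 4.3.3 (lmFit and eBayes, two-sided, Benjamini-Hochberg, threshold 0.05) with a term for the replicate number. The pairing comes from the replicate numbers in the labels and a check: same-numbered arrays deviated together from their group means, with correlations of 0.879, 0.818 and 0.746, all over 0.1, and 15406, 1185 and 1398 probe sets had exactly equal values within a pair. The cause of the equal values was not tested. An exact permutation test of 3 against 3 arrays could not go below p = 0.1. Alternatives were an unpaired fit, other limma options, quantile normalization, median centring, a filter on low values, other thresholds, other choices of probe set and leaving out each replicate number.

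Genes and lists were chosen with earlier results of these data known. Values on every array were given for the 5 genes of each group furthest from 0, the 2 best expressed of each, and Gapdh, Hif1a, Epas1, Vegfa, Slc2a1, Pdk1 and Ldha. Of each other pathway list, genes that passed or else the 2 furthest from 0 were named. Hk2, Gjb6, Dusp1, Selenbp1 and Bhlhe40 were named outside this rule, after their values were seen. A gene's symbol came from the platform annotation and its older names from RefSeq (GRCm38.p6). Several enzymes have near-identical pseudogene copies, and the best expressed probe sets of Aldoa, Pgk1 and Tpi1 are of the _x_at class, which can cross-hybridise. That of Ndrg1 is of the _s_at class.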

Additional observations from a re-analysis of the deposited data

How the results depend on the processing

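The count of 0 of 31 genes called held without the replicate block, with trend and robust options, with median centring, with a filter on low values (28 of the 31 left), with a gene's probe sets averaged, without _x_at and _s_at probe sets, and without any 1 replicate number. It also held with control probe sets kept (Gapdh adjusted p = 0.763 by its 3′ probe set), an alternative chosen after seeing the data. Without the block, or without 1 replicate number, at most 7 probe sets were called over the array, so a count of 0 there says little. Quantile normalization called 1, Pfkfb3. An adjusted p under 0.1 also called 1, and an unadjusted p under 0.05 called 8.

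Over all probe sets 42 were called, against 3 with no replicate block, 92 at an adjusted p under 0.1 and 3234 at an unadjusted p under 0.05, and between 0 and 7 when 1 replicate number was left out, where 1 residual degree of freedom remained. Without replicates 1, 2 and 3 in turn the count was 7, 0 and 0. In the unpaired fit every 1 of the 31 genes had an adjusted p of 1.

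The hypoxia response median was 0.0063 with median centring, -0.10 with the mean of probe sets, and between -0.031 and 0.021 when 1 replicate number was left out. The enzyme median stayed negative in all its alternatives, from -0.138 without _x_at and _s_at probe sets to -0.0468 without replicate 2. Single genes changed sign near 0: Car9 was 0.012 with quantile normalization and 0.011 with median centring, P4ha1 was 0.0017 with median centring, and Egln1 was -0.026 and Hif1a -0.16 with the mean of probe sets. Leaving out 1 replicate number gave -0.067 to 0.0033 for Aldoa, -0.158 to 0.0097 for Hk1, -0.076 to 0.0050 for Ldhb, -0.011 to 0.0080 for Car9, -0.051 to 0.068 for P4ha1 and -0.119 to 0.094 for Ero1l. The cause of these changes was not tested. Whether the weakest genes, such as Ankrd37 and P4ha2, lie above background was not tested.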
